A study of Mus musculus with 18 samples.

Results

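Fc receptors and the signalling proteins they use were described as a group of 7 genes, found by symbol among the 18585 genes of the deposited expression table. They are the activating IgG receptors Fcgr1, Fcgr3 and Fcgr4, the inhibitory IgG receptor Fcgr2b, the adaptors Fcer1g and Tyrobp, and the kinase Syk. All 7 were in the table, and all 7 passed the filter for testing (a normalized count of at least 10 in at least 4 libraries), as did 13809 genes in all. The genes were listed by name and function, but with earlier results of these data known.

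The series measured RNA from whole forepaws of C57BL/6 mice by CEL-seq, which reads each RNA from a tag near its 3' end. Wild type mice (WT) were compared with mice without Sema3b (Sema3b-/-), the gene of a secreted semaphorin, and each genotype was sampled as controls and with arthritis. The 18 libraries form 4 groups, with 4 WT and 4 Sema3b-/- control libraries and 5 WT and 5 Sema3b-/- arthritis libraries. The labels name neither the arthritis model, the age of the mice nor the construction of the Sema3b allele.

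Fc gamma receptors bind the constant region of IgG, so that antibody in immune complexes can activate a cell. The activating receptors signal through a short adaptor, the Fc receptor gamma chain encoded by Fcer1g, whose tail carries an ITAM (immunoreceptor tyrosine-based activation motif). When Src family kinases phosphorylate the ITAM, the kinase Syk docks there and starts the signal, whereas Fcgr2b carries an ITIM (the inhibitory counterpart) that recruits phosphatases. In inflamed joints these receptors are known on macrophages, neutrophils and mast cells, and mice without the gamma chain are known to resist joint disease driven by antibodies.

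The motifs that make these genes a pathway can be read in the coding sequence. The ITAMs of Fcer1g and Tyrobp and the ITIM of Fcgr2b are shown because they separate the activating from the inhibitory members. Capitals mark the codons of the tyrosines and of the leucine or isoleucine residues that define each motif.
Fcer1g ITAM: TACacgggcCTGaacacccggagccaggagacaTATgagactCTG
Tyrobp ITAM: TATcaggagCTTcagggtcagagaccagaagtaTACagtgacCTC
Fcgr2b ITIM: ATCaccTACtcacttCTC
The sequences come from GENCODE M21 transcripts on mm10. The Fcer1g motif is split over exons 4 and 5 of 5 (chr1:171229889-171230072, minus strand) and begins at residue 65 of 86. That of Tyrobp is likewise split over exons 4 and 5 of 5 (chr7:30415670-30417382, plus strand) and begins at residue 92 of 114. The Fcgr2b motif lies in exon 8 of 8 (chr1:170961071-170961088, minus strand) and begins at residue 317 of 340. A search of the 7 coding sequences found the ITAM pattern in these 2 adaptors and in no other member. The shorter ITIM pattern also matched stretches in Fcgr1, Fcgr4, Fcer1g and Tyrobp, so a match by itself is a description of letters.

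The shallowest library, Sema3b-/- control replicate 1, held 1732783 reads and the deepest, WT arthritis replicate 2, held 19464892, and values are given as the authors' normalized counts, which are counts divided by a size factor for each library. In the shallowest library a count of 0 would allow up to 3 reads, or 12.1 normalized counts, and the lowest member value there, Fcgr4, rested on 10 reads. Sema3b itself lay between 23.7 and 67.5 normalized counts in WT libraries and between 0 and 7.20 in Sema3b-/- libraries, where the highest value came from 6 reads. Sex is not in the labels and was read from Xist and Y-linked genes: all 4 WT control libraries were female, as were 2 of 4 Sema3b-/- control, 1 of 5 WT arthritis and 4 of 5 Sema3b-/- arthritis libraries. The title of every control library begins differently from those of all arthritis libraries, so any difference in handling that goes with the titles cannot be told apart from arthritis. The column of Sema3b-/- arthritis replicate 5 has a name that reads like a control, but its title and treatment label say arthritis. Of its 7 member values, 6 lie above all Sema3b-/- controls, as in the other 4 libraries of that group. These values are part of the arthritis comparison below, so they cannot decide which label is right.

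The first question was how the members differed between arthritis and control in WT mice. Fcer1g, Fcgr3 and Tyrobp were higher in WT arthritis by 2.29-, 2.69- and 2.80-fold, while Syk, the kinase they share, had a mean of 300.4 normalized counts in arthritis and 279 in controls. Fcgr1, Fcgr4 and Fcgr2b were 2.48- to 3.10-fold higher on average but did not pass the test. In whole tissue, more RNA per cell and more cells of the expressing type cannot be told apart.

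Among the activating receptors, Fcgr1 encodes the high-affinity receptor for IgG. It measured 44.2, 47.8, 90.1 and 46.9 normalized counts in WT control replicates 1 to 4, and 84.3, 60.2, 218, 259 and 198 in WT arthritis replicates 1 to 5. Arthritis replicates 3, 4 and 5 lay above every control, and replicates 1 and 2 lay below the highest control. The fitted log2 fold change (on log2 of the value plus 1) was 1.36 with an SE of 0.46, which missed the threshold in limma (adjusted p = 0.105). Fcgr3 encodes a low-affinity receptor that depends on the gamma chain. Its values were 190.1, 228, 219 and 274 in WT controls and 369.6, 377, 797, 947 and 790.3 in WT arthritis. All 5 arthritis libraries lay above all 4 controls, with replicates 1 and 2 nearest to them, and the log2 fold change was 1.43 (SE 0.28, limma adjusted p = 0.0111). Fcgr4, which binds some IgG subclasses with intermediate affinity on monocytes and neutrophils, had values of 43.1, 68.6, 27.2 and 19.6 in WT controls and 23.7, 80.7, 164, 304 and 181 in WT arthritis. Arthritis replicate 1 lay inside the control range and the other 4 lay above it. Its log2 fold change was the highest of the 7 members and also the least precise (1.63, SE 0.60, limma adjusted p = 0.136).

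The inhibitory receptor Fcgr2b, which restrains B cells and myeloid cells, measured 218, 308, 243 and 222 in WT controls and 300.1, 314, 1195, 1187 and 624 in WT arthritis. Of its arthritis libraries, 2 lay next to the controls and 3 far above them. The log2 fold change was 1.31 (SE 0.39, limma adjusted p = 0.0678).

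The adaptor Fcer1g, the gamma chain that carries the ITAM shown above, measured 1809, 1908, 1646 and 1738 in WT controls and 2553, 2972, 4712, 6128 and 5069 in WT arthritis. The groups did not overlap, and the controls lay close together (mean 1775 ± 111, SD, n = 4). Its log2 fold change was 1.20 (SE 0.22, limma adjusted p = 0.00804). Tyrobp encodes DAP12, the ITAM adaptor of Trem receptors and of several NK cell receptors rather than of the IgG receptors. It measured 596, 688, 525 and 524 in WT controls and 646, 1124, 2114, 3430.3 and 2130.2 in WT arthritis. Replicate 1 of the arthritis group lay below the highest control, the others lay above all controls, and the log2 fold change was 1.48 (SE 0.40, limma adjusted p = 0.0478).

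Syk, the kinase that binds phosphorylated ITAMs, measured 343, 263, 270.2 and 239 in WT controls and 176, 215, 341, 384 and 386 in WT arthritis. The arthritis libraries lay on both sides of the controls. Its log2 fold change was 0.05 with an interval of 2 SE from -0.57 to 0.67 (limma adjusted p = 0.944), which leaves room for a change in either direction.

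**Figure D1:**
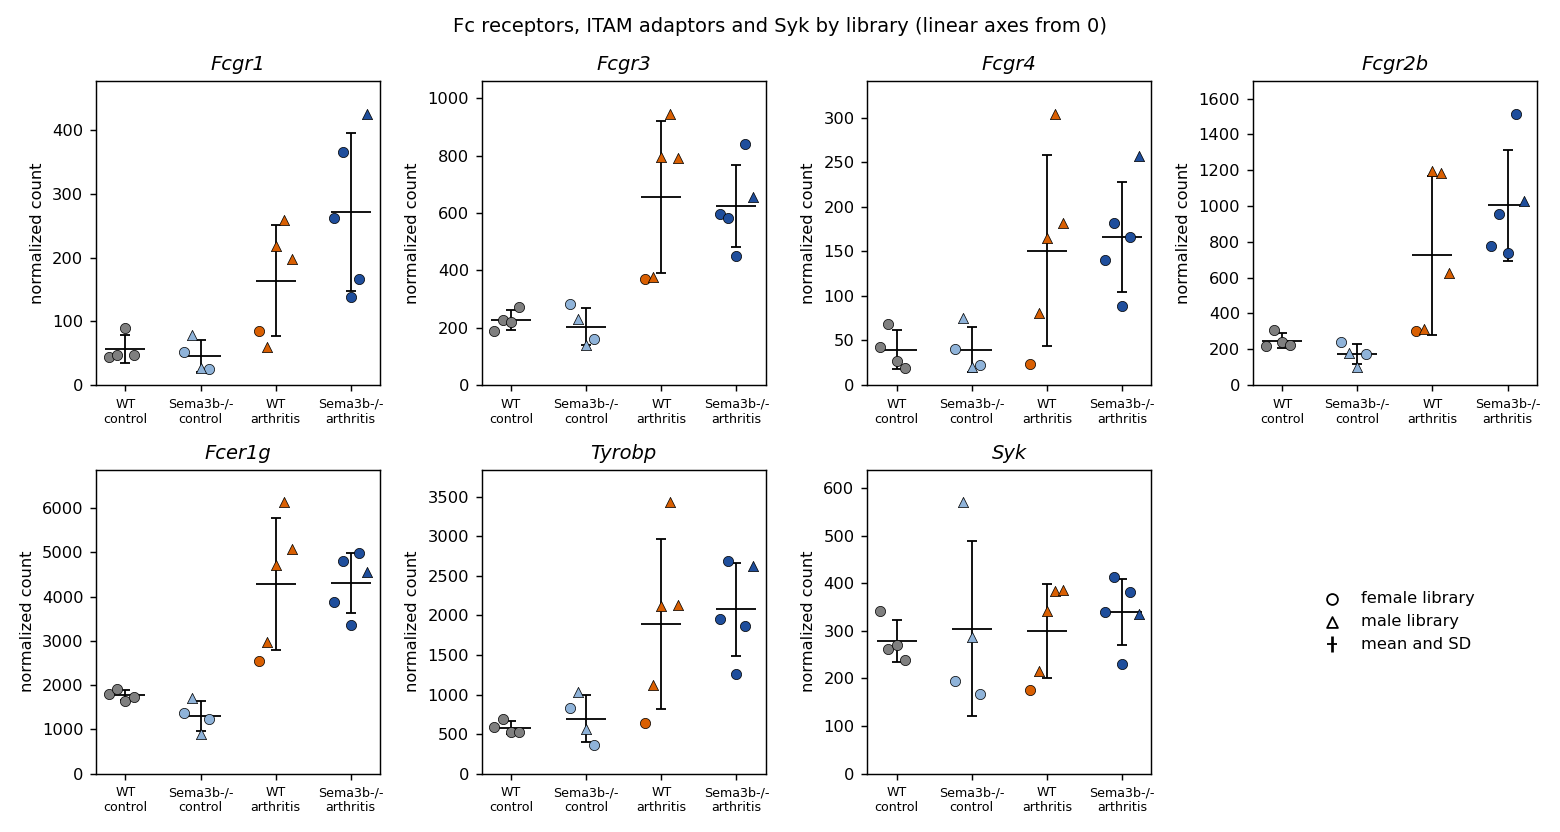
Normalized counts of the 7 genes (vertical axes, linear and starting at 0) in each of the 18 libraries, by group, with circles for female and triangles for male libraries and a bar with whiskers for the group mean and SD. WT arthritis replicates 1 and 2, drawn first in their group, lie near the WT controls for Fcgr1, Fcgr2b and Syk, while all 5 Sema3b-/- arthritis libraries lie above the Sema3b-/- controls for every gene except Syk.

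By count, 3 of the 7 members were called higher in WT arthritis and none lower, where 2.64% of the 13809 tested genes were called higher and 1.58% lower. In 2 of the 7 the groups did not overlap, against 5.82% of all tested genes with higher, separate groups. The median log2 fold change was 1.36 over the members and -0.02 over all tested genes. WT arthritis replicate 1 had the lowest value of its group for 6 of the 7 members and lay above all WT controls only for Fcgr3 and Fcer1g. Without it 5 members were called, and also 5 without WT arthritis replicate 2, where 3.99% and 5.2% of the genes tested in those fits were called higher. Without the 3 arthritis libraries whose titles do not begin with Joint, 2 were called (Fcer1g and Fcgr3, limma adjusted p = 0.0403 and 0.04995) and Tyrobp was not (0.122), where 0.899% of tested genes were called higher. Fcer1g and Fcgr3 were called in each of the 18 fits that left out 1 library (highest adjusted p = 0.0399 and 0.0449 in limma), whereas Tyrobp was not called in 13 of them.

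Sex moved with this comparison. With sex as a term in the model, 0 of 7 members were called in WT arthritis, and the log2 fold changes were 0.98 for Fcer1g, 1.25 for Fcgr3 and 0.81 for Tyrobp (limma adjusted p = 0.0963, 0.105 and 0.391). Over all tested genes, 0.543% were called higher with that term. Within female libraries, the only WT arthritis library is replicate 1, which exceeded the mean of the 4 WT controls by 0.71 for Fcgr3 and 0.53 for Fcer1g on the log2 scale and differed from it by -0.57 for Fcgr4 and -0.65 for Syk. No WT control library was male, so there is no value within males. The 2 count models run on the recovered reads differed from limma here: edgeR's quasi-likelihood test called 4 members, adding Fcgr2b (adjusted p = 0.0333), and DESeq2 called 6, all except Syk. These tools called 3.77% and 6.15% of the genes they tested higher. In the authors' deposited table, Fcgr3, Fcgr2b, Fcer1g and Tyrobp had adjusted p-values of 0.0151, 0.0375, 0.0145 and 0.0275, and Fcgr1 and Fcgr4 had 0.0743 and 0.0627.

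The same question in Sema3b-/- mice gave larger differences on average. All 3 activating receptors, the inhibitory receptor and both adaptors rose in Sema3b-/- arthritis, by 3.10-fold (Tyrobp) to 5.92-fold (Fcgr1), and Syk again did not pass the test. Of the 7 members, 6 were called higher where 6.84% of all tested genes were, and in the same 6 the 5 arthritis libraries lay above all 4 controls (7.13% of all tested genes). The median log2 fold change was 1.75 over the members and -0.01 over all tested genes.

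Fcgr1 measured 52.6, 78.2, 27.3 and 25.2 in Sema3b-/- control replicates 1 to 4 and 262, 367, 139, 166 and 426 in Sema3b-/- arthritis replicates 1 to 5. The lowest arthritis library was still well above the highest control, and the log2 fold change was 2.57 (SE 0.46, limma adjusted p = 0.00300). Fcgr3 measured 283, 231, 140.1 and 161 in controls and 596, 582, 449, 840.0 and 657 in arthritis. Its groups were separate too, and it rose by 1.64 on the log2 scale (SE 0.28, limma adjusted p = 0.00211). Fcgr4 measured 40.5, 75.4, 20.2 and 22.8 in controls and 139.9, 182, 88.5, 166 and 257 in arthritis. Here the gap was narrow, between control replicate 2 and arthritis replicate 3. The log2 fold change of Fcgr4 was 2.15 (SE 0.60, limma adjusted p = 0.0297), and the call was lost without Sema3b-/- control replicate 1, 3 or 4 or Sema3b-/- arthritis replicate 2 or 5 (highest adjusted p = 0.0890).

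Fcgr2b, the inhibitory receptor, measured 239, 179, 101 and 173 in Sema3b-/- controls and 779, 958, 739.8, 1516 and 1027 in Sema3b-/- arthritis. The lowest arthritis library lay far above the highest control, and the log2 fold change was 2.55 (SE 0.39, limma adjusted p = 0.00124). Fcer1g measured 1372, 1699.6, 906 and 1233 in controls and 3882, 4794, 3361, 4993 and 4549.6 in arthritis, again without overlap. It had the lowest adjusted p of the members (log2 fold change 1.75, SE 0.22, limma adjusted p = 0.000418). Tyrobp measured 829.5, 1038, 560.4 and 362 in controls and 1958, 2685, 1264, 1872 and 2621 in arthritis. The highest control, replicate 2, came close to the lowest arthritis library, replicate 3, and the log2 fold change was 1.63 (SE 0.40, limma adjusted p = 0.0167).

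Syk measured 194, 569.9, 287 and 168 in Sema3b-/- controls and 339, 412, 230.2, 383 and 335 in Sema3b-/- arthritis. The highest Syk value of all 18 libraries was thus in a control, replicate 2. The log2 fold change was 0.30 with an interval of 2 SE from -0.32 to 0.92 (limma adjusted p = 0.553). Without that control library it was 0.66, still not called (limma adjusted p = 0.111). That library also had the highest summed normalized count of its group for neutrophil markers (41416, the other 3 between 9244 and 19891), B cell markers (2805) and osteoclast markers (23575). It was also highest for NK cell (111) and dendritic cell markers (144). It was not highest for macrophage (10250), platelet (10379) or forepaw tissue markers (360048), and it was lowest for mast cell markers (681). Control replicate 3 had an osteoclast sum of 21284 and a Syk value of 287. The part of these cells in the Syk values was not tested.

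The Sema3b-/- comparison could also be read within each sex. In females, 4 arthritis libraries against 2 controls, all 7 members including Syk were higher without overlap, by 0.88 (Syk) to 2.54 (Fcgr1) on the log2 scale, as were 16.3% of all tested genes. In males, 1 arthritis library against 2 controls, the 6 called members were higher without overlap and Syk overlapped, where 38.2% of all tested genes were higher without overlap. With sex as a term, 6 of 7 were called higher, as were 7.63% of all tested genes. Leaving out the 3 differently titled arthritis libraries left 4 members called in Sema3b-/- arthritis (1.63% of tested genes were called higher), and Fcgr4 and Tyrobp were then not called (limma adjusted p = 0.129 and 0.108).

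**Figure D2:**
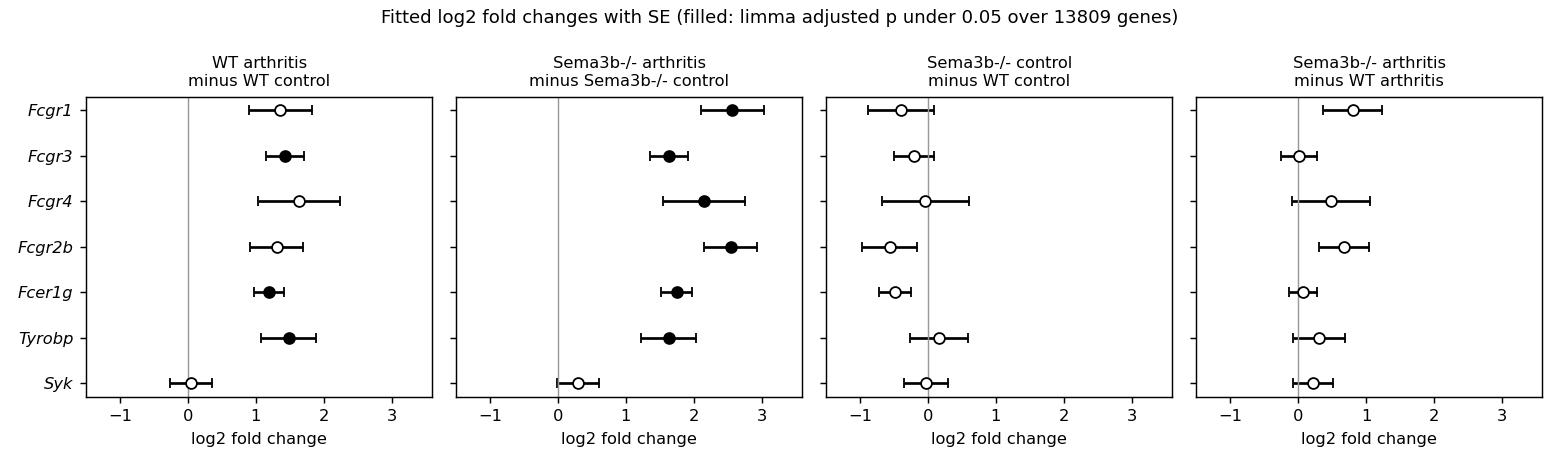
Fitted log2 fold changes (horizontal axes, points with bars of 1 SE) of the 7 genes in the 2 arthritis comparisons and the 2 genotype comparisons, filled where limma's adjusted p over 13809 genes was under 0.05. Filled points appear only in the arthritis panels, 3 in WT and 6 in Sema3b-/-, and Syk lies near 0 in both.

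The next question was whether loss of Sema3b went with different levels of the members. In controls, 0 of 7 members were called by limma, edgeR or DESeq2, where limma called 0.0145% of all tested genes in either direction; 0 of 7 had an unadjusted limma p under 0.05, against 5.87% of all genes. The nearest was Fcer1g, at 1302 ± 329 (SD, n = 4) normalized counts in Sema3b-/- controls and 1775 ± 111 (SD, n = 4) in WT controls. Its log2 difference was -0.48 with an interval of 2 SE from -0.95 to -0.01 (limma adjusted p = 0.841), and the 2 groups overlapped through Sema3b-/- control replicate 2. For Fcgr2b the log2 difference was -0.57 (interval of 2 SE from -1.39 to 0.26, limma adjusted p = 0.915). The intervals of the other 5 members included 0 and were widest for Fcgr4 (-1.31 to 1.23) and narrowest for Fcgr3 (-0.80 to 0.39). These libraries leave room for differences within these bounds.

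In arthritis, 0 of 7 members were called between the genotypes by limma, edgeR or DESeq2 (0.0217% of all tested genes were called by limma), and 0 of 7 had an unadjusted limma p under 0.05 (8.97% of all genes). All 7 fitted differences were positive, from 0.01 for Fcgr3 to 0.81 for Fcgr1. Fcgr1 averaged 272 ± 124 in Sema3b-/- arthritis and 164 ± 86.9 in WT arthritis (SD, n = 5 each), a log2 difference of 0.81 with an interval of 2 SE from -0.07 to 1.68 (limma adjusted p = 0.616). Fcgr2b averaged 1004 ± 310.4 and 724 ± 445 (SD, n = 5 each), a log2 difference of 0.67 with an interval from -0.06 to 1.41 (limma adjusted p = 0.621). Fcer1g, by contrast, averaged 4316 ± 678 and 4287 ± 1493 (SD, n = 5 each), with a log2 difference of 0.07 and an interval from -0.35 to 0.49. In all 7 the groups overlapped (0.775% of all genes were higher and 0.999% lower without overlap), and sex differed between them: the 1 female WT arthritis library lay below all 4 female Sema3b-/- arthritis libraries for all 7 members (26.2% of all genes), while the 1 male Sema3b-/- library exceeded all 4 male WT libraries for 1 member, Fcgr1 (16% of all genes).

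Whether arthritis acted differently in the 2 genotypes was tested as an interaction. None of the 7 was called by limma or edgeR, nor any of the 6 to which DESeq2 gave an adjusted p (it gave none for Fcgr4), and limma called 0 of all 13809 genes. All 7 interaction terms were above 0, and Fcgr2b had an unadjusted limma p of 0.0387 (4.8% of all genes were under 0.05), with a term of 1.24, an SE of 0.55 and an adjusted p of 0.974. For Fcgr1 the term was 1.21 (SE 0.66, unadjusted p = 0.0825), and for Fcgr3 and Tyrobp it was 0.21 and 0.15. With sex as a term the interaction was 1.99 for Fcgr1, 1.90 for Fcgr4, 1.45 for Fcgr2b, 1.08 for Tyrobp, 1.04 for Syk, 0.85 for Fcer1g and 0.46 for Fcgr3, and again none was called (limma adjusted p from 0.580 to 0.842). The larger fold changes in Sema3b-/- mice were therefore not shown to differ from those in WT mice.

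Set in order of mean normalized count, the 2 control groups came lowest for each member except Syk, and neighbouring groups mostly overlapped. The step from controls to arthritis was free of overlap for Fcgr3 (WT control 228 to Sema3b-/- arthritis 625) and Fcer1g (WT control 1775 to WT arthritis 4287). For Syk the 4 means ran from 279 in WT control through 300.4 and 305 to 340.0 in Sema3b-/- arthritis, and all neighbours overlapped.

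The balance of activating and inhibitory receptor within a library was described by log2 ratios to Fcgr2b, first that of Fcgr3. The RNAs of Fcgr3 and Fcgr2b share 238 stretches of 30 bases over their whole length. They share none in their last 500 bases, where the tags lie. The ratio averaged -0.12 ± 0.31 in WT control (SD, n = 4), -0.0012 ± 0.42 in WT arthritis (SD, n = 5), 0.25 ± 0.25 in Sema3b-/- control (SD, n = 4) and -0.66 ± 0.17 in Sema3b-/- arthritis (SD, n = 5). In Sema3b-/- mice the arthritis values (-0.85 to -0.39) all lay below the control values (-0.10 to 0.47), so Fcgr2b was the more raised of the pair there. In WT mice the ranges overlapped, and WT and Sema3b-/- arthritis overlapped as well. Fcgr1 and Fcgr4 did not show this separation. In Sema3b-/- mice the log2 ratio of Fcgr1 to Fcgr2b averaged -1.98 ± 0.65 in control and -1.96 ± 0.81 in arthritis (SD, n = 4 and 5). That of Fcgr4 to Fcgr2b averaged -2.23 ± 0.71 and -2.62 ± 0.49 (SD, n = 4 and 5). Both had overlapping ranges in each genotype. The ratios were not tested, and the share of all tested genes that separate from Fcgr2b this way was not computed.

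Syk and Fcer1g, whose ITAM it binds, differed in arthritis. The log2 ratio of Syk to Fcer1g was -2.68 ± 0.22 in WT control and -3.82 ± 0.11 in WT arthritis, and the highest arthritis value (-3.71) lay below the lowest control value (-2.86). In Sema3b-/- mice it was -2.23 ± 0.71 in control and -3.67 ± 0.15 in arthritis, with the highest arthritis value at -3.51 and the lowest control at -2.87. All 10 arthritis libraries therefore held less Syk per Fcer1g than all 8 controls. Fcer1g itself was higher in arthritis, so a gene that did not rise with it would also show a lower ratio. The share of all tested genes that separate from Fcer1g this way was not computed. Tyrobp and Fcer1g moved more evenly: their log2 ratio was -1.61 ± 0.11 in WT control and -1.33 ± 0.42 in WT arthritis, with overlapping ranges.

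Markers of the cells known to carry these receptors were read beside the members. Summed normalized counts of 14 monocyte and macrophage markers ran from 9249 to 12141 in WT control, 10532 to 28538 in WT arthritis, 8180.2 to 12997 in Sema3b-/- control and 17213 to 27690 in Sema3b-/- arthritis, and none of the 14 was at 0 in a whole group. Of the 14, 3 were called higher in WT arthritis (Lyz2, Ccr2 and Mrc1) and 9 in Sema3b-/- arthritis, and none lower. Over all tested genes, 2.64% and 6.84% were called higher. Neutrophil markers (13) summed to 7541 to 12437 in WT control and 7384 to 70206 in WT arthritis, where replicate 1 was the lowest and replicate 2 the highest. In Sema3b-/- mice the neutrophil sums overlapped, with 9244 to 41416 in control and 10888 to 59685 in arthritis. WT arthritis replicate 2, low for Fcgr1 and Fcgr2b, thus had the lowest macrophage sum and the highest neutrophil sum of its group, and the part of cell composition in its values was not tested.

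Mast cell, NK cell and dendritic cell markers were read as well. Mast cell markers (8) summed to 1158 to 1553 in WT control and 1009.8 to 2167 in WT arthritis, and in Sema3b-/- mice to 681 to 1335 (median 954) in control and 1153 to 2201 (median 1636) in arthritis. NK cell markers (6 tested of 8) summed to 87.2 to 111 and 39.9 to 258 in WT mice and to 24.0 to 111 and 60.3 to 175 in Sema3b-/- mice. Dendritic cell markers (6 tested of 7) summed to 137 to 187 and 119.8 to 280 in WT mice, and in Sema3b-/- mice to 73.2 to 144 in control and 209 to 692 in arthritis, without overlap. B cell markers (5 tested of 6 in the table) went the other way, with 639 to 1296 in WT control and 212 to 579.9 in WT arthritis, and in Sema3b-/- mice 544 to 2805 in control and 108 to 995 in arthritis. Osteoclast marker sums overlapped in both genotypes. Prf1 of the NK cell list and Pax5 of the B cell list were at 0 reads throughout Sema3b-/- control, and no other listed marker was at 0 throughout a group. The forepaw was recognisable from its own markers: 11 genes of bone, cartilage, muscle and epidermis were all detected, and they summed to 140376 to 160647 in WT control, 67388 to 109900.0 in WT arthritis, 150929 to 440858 in Sema3b-/- control and 54306 to 74923 in Sema3b-/- arthritis. The part of these cell types in the member values was not tested.

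Measured against the 14 macrophage markers of the same library, the members divided. The mean log2 of these markers was higher by 0.88 in WT arthritis and by 1.24 in Sema3b-/- arthritis. Relative to it, Fcgr1 was higher by 1.33, Fcgr2b by 1.31 and Fcer1g by 0.51 in Sema3b-/- arthritis, each without overlap between the 5 arthritis and 4 control libraries. Fcgr3, Fcgr4 and Tyrobp were higher by 0.40, 0.92 and 0.39 there and overlapped. In WT arthritis the 6 members other than Syk were 0.32 to 0.75 higher relative to the markers, all with overlap. Syk lay lower relative to the markers in both genotypes, by a log2 difference of -0.83 in WT mice (without overlap) and -0.94 in Sema3b-/- mice (with overlap, through the lowest of the controls). These relative levels depend on the choice of markers and carry no test. The share of all tested genes that separate on this relative measure was not computed, so the overlaps describe the members only.

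**Figure D3:**
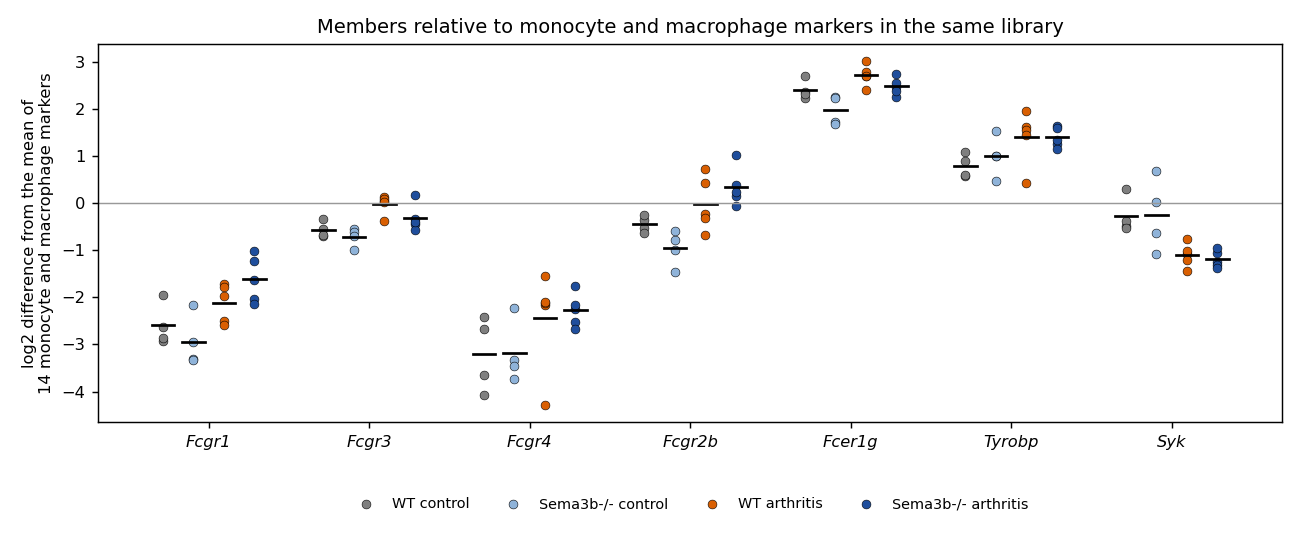
Level of each gene relative to macrophage content, as the log2 difference between the gene and the mean of 14 monocyte and macrophage markers in the same library (vertical axis), by group, with 1 point for each of the 18 libraries and a bar for the group mean. In Sema3b-/- mice Fcgr1, Fcgr2b and Fcer1g lie higher in arthritis than in controls without overlap, and Syk lies lower in both arthritis groups, by -0.83 and -0.94 in the mean. The share of all tested genes that separate this way was not computed.

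The members' values were compared across libraries. Over the 18 libraries, which share their groups and depth, the Pearson correlation of log2 values between pairs of the 6 other members ran from 0.87 (Fcgr3 and Fcgr4) to 0.97 (Fcgr3 and Fcer1g), while Syk reached 0.39 (with Fcgr2b) to 0.63 (with Fcgr4). After the 4 group means were removed, Tyrobp and Fcgr4 remained at 0.92, Fcgr3 and Fcgr2b at 0.89, and Fcer1g and Fcgr4 at 0.89. Fcgr1 and Fcgr2b were at 0.62 on that measure, and Syk ran from 0.42 (with Fcgr2b) to 0.78 (with Tyrobp).

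Among all tested genes, the closest patterns to Tyrobp belonged to Mpeg1 (r = 0.99), Cd300lb (0.99) and Cd53 (0.98), and Mpeg1 and Cd300lb also led after removal of group means (0.99 and 0.97). Fcgr4 was closest to Mpeg1, Cd53 and Tyrobp (0.97, 0.96 and 0.96). The gamma chain Fcer1g was closest to Fcgr3, Clec7a and Ms4a6c (0.97, 0.97 and 0.96), and Fcgr3 to Lyz1, Tmsb4x and Fcer1g (0.97 for each). Fcgr2b was closest to Lilrb4 (0.98), Srgn (0.97) and Ctss (0.97), where Lilrb4 is another inhibitory receptor. Fcgr1 was closest to Fam105a, Man2a1 and Apobec1 (0.97 for each), and after removal of group means to Fam105a, Isg15 and Lyz2 (0.94, 0.94 and 0.93). Syk kept other company, with Limd2, Nmral1 and Ppp1r18 (0.91, 0.90 and 0.88). All these correlations are over the same 18 libraries and describe likeness only.

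The rest of the pathway was read from lists of genes grouped by role. Of 20 tested receptors that couple to Fcer1g, Tyrobp or an ITAM-like motif of their own, 5 were called higher in WT arthritis and 11 in Sema3b-/- arthritis, none lower, where 2.64% and 6.84% of all tested genes were called higher. The fitted change was above 0 for 17 and 18 of the 20, with medians of 1.07 and 1.38 on the log2 scale. Those below 0, none called, were Clec1b, Oscar and Siglech in WT arthritis and Clec1b (-0.37) and Gp6 (-1.76) in Sema3b-/- arthritis. Trem1, a Tyrobp partner that amplifies myeloid activation, averaged 5.10 ± 4.96 normalized counts in WT control (SD, n = 4) and 113 ± 111 in WT arthritis (SD, n = 5). Its log2 fold change was 3.85 (SE 0.74, limma adjusted p = 0.00991). In WT control libraries 3 reads are worth 2.56 to 3.32 normalized counts, so the size of this change rests on few control reads. Clec4d, a C-type lectin that pairs with the gamma chain, averaged 33.9 ± 10.8 and 552 ± 519 in WT mice (SD, n = 4 and 5), with log2 fold changes of 3.38 in WT and 3.63 in Sema3b-/- arthritis (limma adjusted p = 0.0116 and 0.00353). Clec7a, the beta-glucan receptor dectin-1, averaged 204 normalized counts in WT control and 652 in WT arthritis, and 145 and 792 in Sema3b-/- mice (limma adjusted p = 0.0412 and 0.00176). Itgam, a subunit of the complement receptor Mac-1, rose by 1.37 in Sema3b-/- arthritis (limma adjusted p = 0.00207).

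Another list held inhibitory receptors and their close relatives, not all of which carry an ITIM themselves. Of 21 tested, 3 were called higher in WT arthritis and 13 in Sema3b-/- arthritis (2.64% and 6.84% over all tested genes). In Sema3b-/- arthritis 1 was called lower, Siglecg, a receptor of B cells, where 766 of all 13809 tested genes were called lower. The fitted change was above 0 for 18 of 21 in each genotype, with medians of 0.88 and 1.34. Those below 0 were Ceacam1, Cd22 and Siglecg in WT and Pecam1, Cd22 and Siglecg in Sema3b-/- arthritis. Clec4a2, an ITIM-bearing lectin of myeloid cells, rose by 1.18 in WT and 1.59 in Sema3b-/- arthritis (limma adjusted p = 0.0143 and 0.00119). Cd300lf rose by 1.95 and Clec4a3 by 1.31 in WT arthritis (limma adjusted p = 0.0183 and 0.0262). In Sema3b-/- arthritis Clec4a3 rose by 2.17 and Lair1, an inhibitory collagen receptor, by 1.49 (limma adjusted p = 0.000903 and 0.00103).

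Kinases, transducers and brakes downstream of the receptors showed smaller medians. Over all tested genes, 2.64% were called higher and 1.58% lower in WT arthritis. In Sema3b-/- arthritis 6.84% were called higher, and 766 of 13809 were called lower. At the WT shares, 0 called in lists of 11 to 26 genes does not set these lists apart. None of 11 Src and Tec family kinases passed limma in WT arthritis, and in Sema3b-/- arthritis those called included the myeloid kinase Fgr (log2 fold change 2.30, limma adjusted p = 0.00222) and the B cell kinase Blk (-2.03, 0.0371). Of 26 tested signal transducers, 0 were called in WT and 7 in Sema3b-/- arthritis, all higher, among them the scaffold proteins Lat2 (1.69, limma adjusted p = 0.00109) and Lcp2 (1.14, 0.00504) and the phosphoinositide 3-kinase subunit Pik3r5 (1.25, 0.0182). Of 17 phosphatases and other brakes, 0 were called in WT, and in Sema3b-/- arthritis Ptprc (CD45) rose by 1.19 and Ptpn6 (SHP-1) by 0.76, while Inppl1 (SHIP2) fell by 0.75 (limma adjusted p = 0.0279, 0.0336 and 0.00757). The phagocyte oxidase, which these receptors can trigger, had a median log2 fold change of 0.96 over its 5 tested subunits in each genotype.

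Other Fc and immunoglobulin receptors went in both directions. Over all tested genes, 2.64% were called higher in WT arthritis. In Sema3b-/- arthritis 6.84% were called higher, and 766 of 13809 were called lower. Of 9 tested, Fcrls, a myeloid relative of the Fc receptors, rose by 1.75 in WT and 2.33 in Sema3b-/- arthritis (limma adjusted p = 0.0355 and 0.00410). Fcer1a, the IgE-binding chain that also needs Fcer1g, averaged 4.42 ± 5.14 normalized counts in Sema3b-/- control (SD, n = 4) and 17.03 ± 5.54 in Sema3b-/- arthritis (SD, n = 5). It rose by 2.46 on the log2 scale (SE 0.70, limma adjusted p = 0.0300). Its control mean lies under 12.1 normalized counts, the value of 3 reads in the shallowest library of that group, so this change rests on few reads. Fcer2a, the low-affinity IgE receptor of B cells, fell by 2.81 in Sema3b-/- arthritis (limma adjusted p = 0.0170), beside the lower B cell marker sums given above. Among 6 other adaptors with related motifs, the B cell receptor chain Cd79a fell by 2.18 in Sema3b-/- arthritis (limma adjusted p = 0.0232). Hcst, which encodes DAP10 and ends 126 bases from the 3' end of Tyrobp, had log2 differences of 1.04 and 0.83 (limma adjusted p = 0.0728 and 0.0923).

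**Figure D4:**
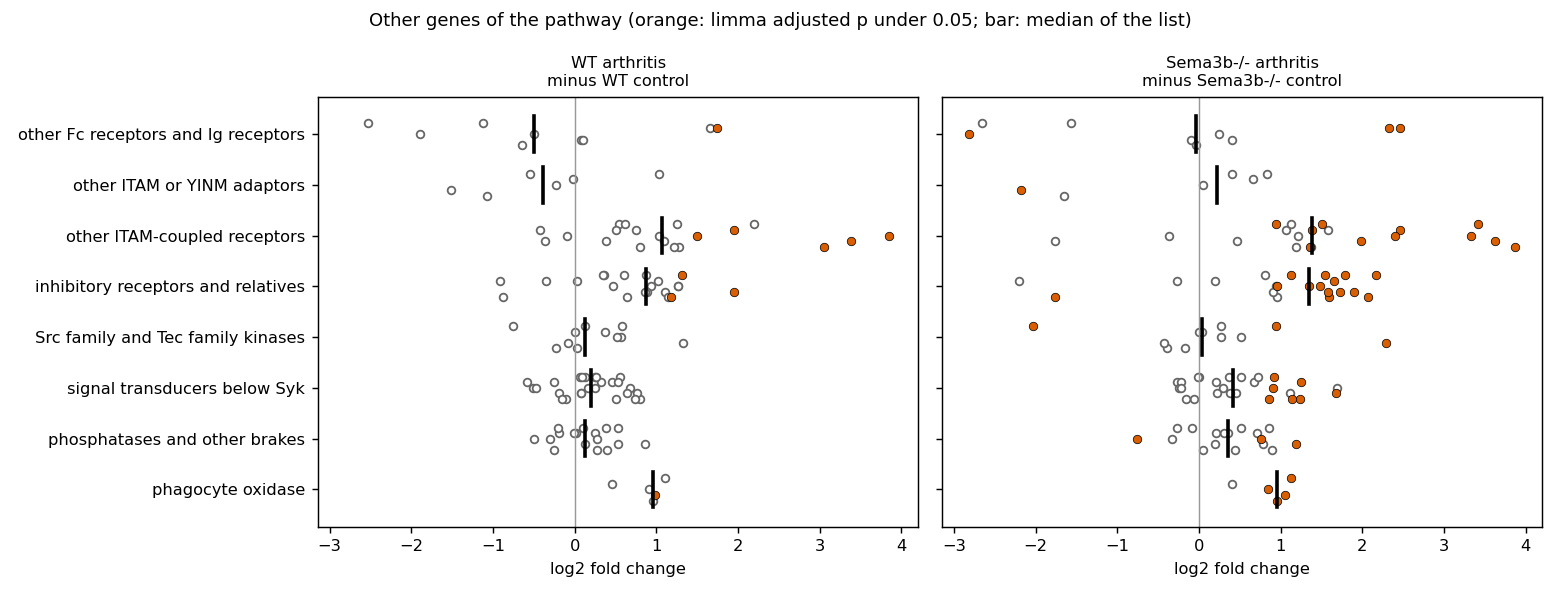
Fitted log2 fold changes (horizontal axes) of other genes of the pathway, 1 point for each tested gene in 8 lists, in WT arthritis (left) and Sema3b-/- arthritis (right), with orange points for limma adjusted p under 0.05 and a black bar for the median of each list. The lists of ITAM-coupled receptors (medians 1.07 and 1.38) and inhibitory receptors (0.88 and 1.34) lie to the right of the lists of kinases, transducers and brakes.

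The genes of the IgG receptors lie in 2 places. On mm10, Fcgr2b (chr1:170958617-170976547), Fcgr4 (chr1:171018920-171029761) and Fcgr3 (chr1:171051174-171064935) form a cluster of 106319 bases, and Fcer1g (chr1:171229572-171234365) lies on the same chromosome. Fcgr1 is at chr3:96282909-96293969, Tyrobp at chr7:30413760-30417585 and Syk at chr13:52583173-52648792. Small annotated genes overlap Fcgr3 (Mir6546), Fcgr4 (Gm26110) and Fcgr2b (Gm38204). How the counting treated them is not stated in the labels.

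As 6 of these genes were called higher together in Sema3b-/- arthritis, their promoters were read for the letters known to be bound by PU.1, a master regulator of myeloid cells (GAGGAA, or TTCCTC on the other strand), and by STAT factors downstream of interferon (TTCNNNGAA, the same on both strands). RefSeq start sites on GRCm38.p6 gave windows of 250 bases for 6 of the 7 members, 8 windows in all, with none for Tyrobp. GAGGAA was found in windows of 4 members (Fcgr1, Fcgr3, Fcgr4 and the second start of Syk). Of 32851 windows of all genes, 23.3% hold it. That share is per window and the count is per member. Fcgr3 and Syk have 2 windows each, so the count and the share are not directly comparable. TTCNNNGAA was found in Fcgr1 alone among the members, where 7.02% of all windows hold it and 1.62% hold both. The windows of the 3 activating receptors are printed, with each match in capitals.
Fcgr1 (chr3:96293970-96294219, minus strand): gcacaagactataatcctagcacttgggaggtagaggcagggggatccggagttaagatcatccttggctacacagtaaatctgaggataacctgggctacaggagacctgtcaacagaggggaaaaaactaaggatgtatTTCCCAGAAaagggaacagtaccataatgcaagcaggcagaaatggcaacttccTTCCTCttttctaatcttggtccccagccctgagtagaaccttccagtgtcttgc
Fcgr3 (chr1:171059404-171059653, minus strand): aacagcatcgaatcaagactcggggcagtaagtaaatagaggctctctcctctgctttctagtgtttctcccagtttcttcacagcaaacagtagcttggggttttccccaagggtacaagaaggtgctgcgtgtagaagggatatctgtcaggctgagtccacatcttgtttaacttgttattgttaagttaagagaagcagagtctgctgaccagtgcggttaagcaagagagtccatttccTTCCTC
Fcgr4 (chr1:171018676-171018925, plus strand): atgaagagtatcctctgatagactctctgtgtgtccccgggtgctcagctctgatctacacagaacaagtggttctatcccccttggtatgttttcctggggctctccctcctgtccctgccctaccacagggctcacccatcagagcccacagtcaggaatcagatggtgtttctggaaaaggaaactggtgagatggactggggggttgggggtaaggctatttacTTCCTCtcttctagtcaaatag
Each sequence ends at the base before the start site. Counted from the start site, with the base before it at -1, the TTCCTC begins at -55 in Fcgr1, -6 in Fcgr3 and -22 in Fcgr4. The TTCCCAGAA of Fcgr1 begins at -109. In the second window of Syk, not printed, GAGGAA begins at -9, nearer the start than the TTCCTC of Fcgr1 and Fcgr4. The windows of Fcgr2b and Fcer1g hold neither motif. A match is a string of letters, not a bound site. Of the members with a match, Fcgr1, Fcgr3 and Fcgr4 were called higher in Sema3b-/- arthritis and Syk was not. Fcgr2b and Fcer1g, without one, were called higher too. Whether the motifs bear on these levels was not tested.

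Single libraries marked the limits of these values. In WT arthritis, replicate 4 had the highest value for 5 of the 7 members and replicate 1 the lowest for 6. In Sema3b-/- arthritis, replicate 3 was the lowest for all 7 members, yet it lay above every Sema3b-/- control for the 6 called members. The spread within WT arthritis was widest for Fcgr4, whose highest library held 12.9 times the lowest, and narrowest for Syk (2.19 times). In Sema3b-/- arthritis no member spread over more than 3.07 times.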

How the data were processed

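The authors deposited 1 table of 18585 genes by 18 libraries, whose values are a signal, namely normalized counts (each count over the size factor of its library). Reads were aligned to mm10 with BWA and analysed with DESeq2 1.32, per the submitters' processing notes, and how reads were counted, on which annotation, strand and molecular barcodes, is among the steps not given in the labels. Whole reads were recovered from the normalized counts for 100% of values (within 0.02 read), and their sums gave each library's total. The deposited tables also give the authors' own log2 fold change with its p-value, raw and adjusted, for each comparison.

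The 7 members, the pathway and marker lists and the tests were chosen with earlier results of these data known. Groups follow the genotype and treatment labels, and no library was left out. That each library is a separate animal is not stated in the labels, so p-values reflect library-to-library spread, which may be partly technical. Chi-square per degree of freedom was 9.59 to 197 over the 32 pairs of libraries of the same group, far above sampling noise, so no pair was treated as a duplicate.

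Limma-trend with the robust option (limma 3.58.1, R 4.3.3) was fitted to log2 of the normalized count plus 1, as 1 model of 4 group means over all 18 libraries. The filter asked for 10 or more normalized counts in 4 or more libraries (13809 genes), Benjamini-Hochberg adjustment ran over all of them, and a call is an adjusted p under 0.05. The 5 contrasts were arthritis in each genotype, genotype in each treatment, and the interaction. Levels carry the SD over libraries, and log2 fold changes the SE of the fit. The fit was checked on simulated data. Alternatives were other pseudocounts and filters, TMM scaling, sex as a term, a replicate block, leaving out libraries, and edgeR 4.0.16 and DESeq2 1.42.0 on the recovered reads. Named genes are the members, the 3 genes most like each member over the 18 libraries before and after removal of group means, and the 3 genes of each list with the lowest p in each arthritis comparison, of which some are printed and some are not reported here. The other genes named from lists (Siglecg and the macrophage markers) were chosen after their values were seen. Faim3, Lilrb3, Lilrb4, Gp49a and Emr1 are older symbols used by the table. Total reads limit the precision: a count of 0 allows up to 3 reads, from 1.31 normalized counts in the deepest library to 12.1 in the shallowest, for counting error only.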

Additional observations from a re-analysis of the deposited data

Results flagged for a closer look

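Fcgr1 in WT control replicate 3 stood apart from the other libraries of its group, at 90.1 normalized counts against 44.2, 46.9 and 47.8. The gap to the nearest library was 0.921 of the range of the group, above the limit used for 4 samples. This was 1 of 28 sets of a member and a group looked at, and chance gives such a gap in about 1 in 20. The value rests on 96 reads, and without this library the log2 fold change of Fcgr1 in WT arthritis was 1.59, not called in limma (adjusted p = 0.122).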

How the results depend on the processing

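The count of members called in WT arthritis depended most on the processing. It was 3 in limma, 0 with sex as a term and 6 with DESeq2, where 2.64%, 0.543% and 6.15% of tested genes were called higher. It ran from 2 to 5 when each of the 18 libraries was left out in turn. The count was 5 without WT arthritis replicate 1 or 2. The cause was not tested, but all WT controls are female and 4 of 5 WT arthritis libraries are male. The count in Sema3b-/- arthritis was 6, and 5 to 6 in the fits without 1 library. Between genotypes and for the interaction it was 0 under every alternative run, although DESeq2 gave no adjusted p for Fcgr4 in the interaction. Replicate numbers do not pair the libraries: 3 of 18 correlated best with a library of their own number, and 7 of 25 pairs with the same number had a correlation over 0.1. With the replicate block, 2 members were called in WT and 4 in Sema3b-/- arthritis. Of the 13809 tested genes, 122 and 571 were called higher in that fit, against 364 and 944 in the main fit.

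Directions changed for small, uncalled differences. Syk in WT arthritis was -0.52 with sex as a term, -0.0036 with the replicate block and -0.0565 without the 3 libraries titled differently. In controls, Fcgr4 between genotypes was 0.0583 in edgeR and 0.0190 in DESeq2, Syk 0.16 and 0.15, and Tyrobp -0.26 with sex as a term. In arthritis, Fcgr3 between genotypes was -0.0698 in edgeR and -0.0703 in DESeq2. The interaction of Tyrobp was -0.12 in edgeR and -0.12 in DESeq2. Without 1 library, Syk ran from -0.0565 to 0.23 in WT arthritis. Between genotypes in controls, Fcgr4 ran from -0.41 to 0.27, Tyrobp from -0.0697 to 0.44 and Syk from -0.39 to 0.20. Between genotypes in arthritis, Fcgr3 ran from -0.17 to 0.17, Fcgr4 from -0.0661 to 0.84, Fcer1g from -0.10 to 0.22 and Tyrobp from -0.0239 to 0.58. In the interaction, Fcgr4 ran from -0.0260 to 0.89 and Tyrobp from -0.18 to 0.42. Their causes were not tested. Depth limits Fcgr4 and Fcgr1 most, with 10 and 13 reads in the shallowest library.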
